A study of Cucumis sativus with 11 samples.

Results

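The steadiest genes of cucumber leaves across salt and silicon treatment are described here: 200 of the 20165 listed genes, chosen because their RNA level varied least over all 11 libraries. The study, on the cultivar JinYou 1, compared leaf RNA under salt with and without added silicon. It has 3 libraries of plants given salt plus silicon, 2 given silicon, 3 given salt and 3 controls. All plants grew in nutrient solution of the same kind. Salt was 75 mM sodium chloride, silicon was 0.3 mM of sodium silicate, which also brings some sodium, both were given together in the salt plus silicon group, and controls received neither. Leaves that had recently expanded were sampled 3 days into treatment, and 3 leaves were pooled into each replicate, so variation between single leaves cannot be seen. Each value is a mean over all cell types of the leaf, and fewer cells of a type and less RNA per cell cannot be told apart.

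Genes with steady RNA levels serve as the yardstick in quantitative PCR, where the level of a target gene is divided by that of a reference gene. Many reference genes are housekeeping genes, which serve processes needed in nearly every cell, such as building and breaking down proteins, the cytoskeleton and the traffic of membranes. Salt stress limits water uptake and loads leaves with sodium, and it is known to change the RNA levels of large parts of plant transcriptomes, so a reference gene that holds in unstressed leaves need not hold under salt. Silicon is taken up by cucumber roots and moved to the leaves, where it is deposited in and around cell walls. The genes are listed by ID alone. None of the IDs (0 of 20165) could be found among the 23999 genes of the RefSeq table used for names, so which of the members belong to a housekeeping process was not analysed here. The digit after Csa in an ID is taken as the chromosome, by the usual form of such IDs, since no file at hand gives gene positions.

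The members were chosen by measured values. The deposited RPKM (read counts scaled to gene length and to the mapped reads of the library) of each library were divided by a factor for that library, the median over 16148 genes of the ratio to the gene's geometric mean. Of the 6191 genes with a mean scaled value from 20 to 500, the 200 with the lowest standard deviation (SD) of log2(scaled RPKM + 1) over the 11 libraries were taken, 3.23% of that window. Low spread is therefore what defines them and is given below as a description. Every library entered the choice, so none of the group differences among the members is independent of it. Relative depth, estimated from values under 0.2 RPKM, lay between 0.885 (silicon 1) and 1.16 (salt plus silicon 3) of control 1. Absolute depth is unknown, so the part of the spread that comes from counting reads could not be computed.

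Csa7G024070 had the lowest spread of all genes in the window. It stood at 55.5, 54.6 and 51.6 scaled RPKM in the salt plus silicon libraries, 51.8 and 52.4 in the silicon libraries, 59.4, 55.8 and 52.2 in the salt libraries, and 54.1, 54.4 and 57.1 in the control libraries. The salt libraries overlapped with each other group and held the highest value, while the lowest was in salt plus silicon. Both silicon libraries lay under all 3 controls. The SD on the log2 scale was 0.063, and the highest library was 1.15 times the lowest.

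Csa1G305740 was the next steadiest, with an SD of 0.064. It was at 61.0, 68.8 and 67.5 scaled RPKM in salt plus silicon, 64.7 and 67.3 in silicon, 69.5, 63.6 and 66.8 in salt, and 61.4, 62.5 and 66.3 in control libraries. The 3 salt plus silicon libraries differed more among themselves than the 4 group means did, which ran from 63.4 ± 2.55 in control (SD, n = 3) to 66.6 ± 2.98 in salt (n = 3).

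Csa5G615250 was at 80.4, 76.3 and 79.6 scaled RPKM in salt plus silicon, 75.1 and 74.8 in silicon, 80.5, 82.5 and 72.5 in salt, and 81.4, 82.8 and 76.0 in control libraries. Both silicon libraries lay under every control and every salt plus silicon library, but inside the range of the salt libraries. Csa7G394600, the lowest in level of the steadiest 5, was at 23.1, 22.5 and 23.3 scaled RPKM in salt plus silicon, 21.4 and 22.2 in silicon, 24.1, 22.0 and 20.8 in salt, and 24.1, 23.6 and 22.2 in control libraries. Its lowest value was in a salt library and its highest in a control library, the salt libraries spanned nearly the whole range, and both silicon libraries lay just under the lowest control.

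Csa7G004130 was at 89.8, 81.2 and 93.9 scaled RPKM in salt plus silicon, 90.4 and 90.6 in silicon, 95.5, 83.1 and 90.3 in salt, and 92.1, 85.5 and 91.5 in control libraries. Its 4 group means lay closest together of all members, within 0.038 on the log2 scale. Its lowest value was in salt plus silicon and its highest in salt, and in both of these groups a replicate lay near each end of the range. The low SDs of these 5 genes hold for the scaled values: in values as deposited they were 0.13 to 0.16, and after quantile normalization those of Csa7G024070, Csa1G305740 and Csa5G615250 were 0.12 to 0.13.

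**Figure D1:**
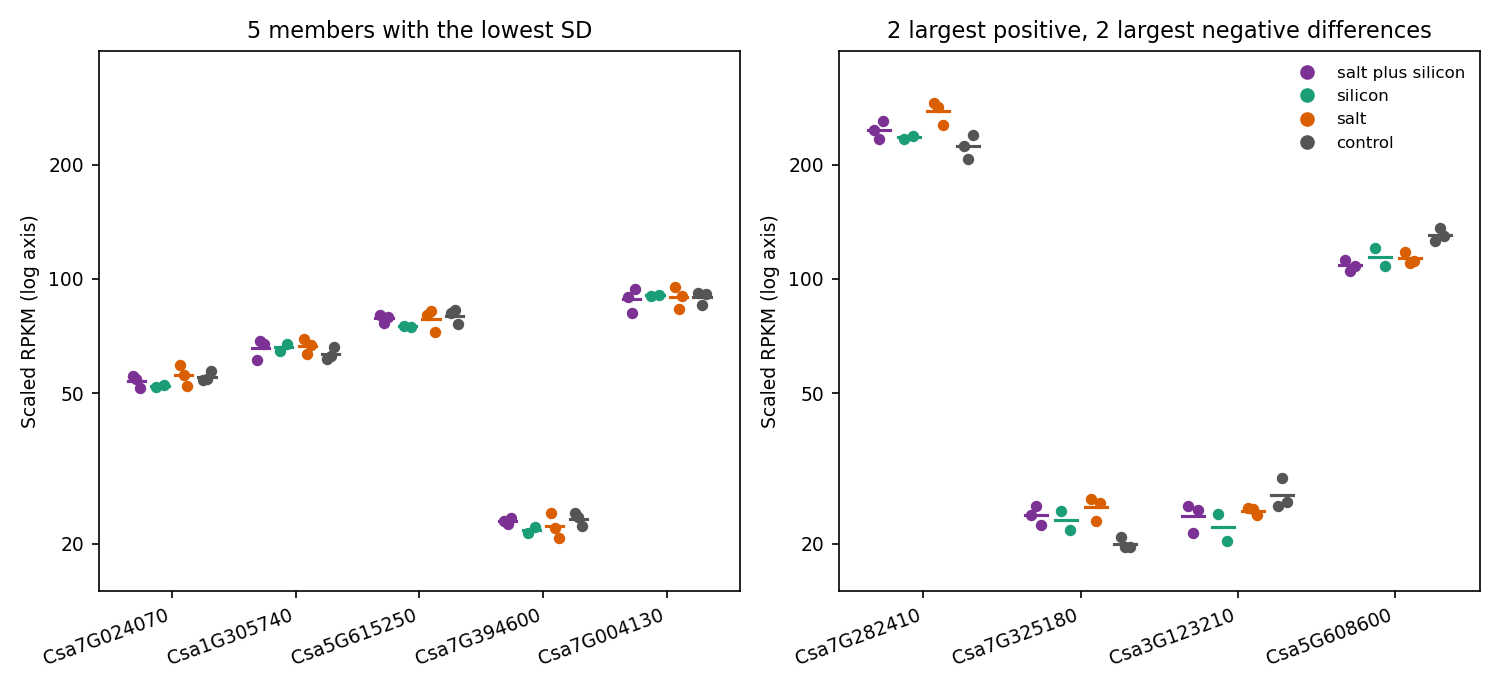
Scaled RPKM on a log axis for the 5 members with the lowest SD (left) and the 2 with the largest positive and 2 with the largest negative differences between a treated group and control (right). Points are libraries and short lines are group means, with salt plus silicon, silicon, salt and control from left to right for each gene; on the left the highest library of a gene is at most 1.18 times its lowest, and on the right the differences reach 0.31 and -0.27 on the log2 scale.

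Over the 200 members the SD ran from 0.063 to 0.14 with a median of 0.13, against a median of 0.39 in the 5991 other genes of the window. The coefficient of variation of scaled RPKM was 4.46% at the lowest, 9.23% at the median and 10.9% at the highest. In 199 of the 200 members the highest library was under 1.5 times the lowest, and in 29 it was under 1.25 times. Of the other genes of the window, 6.06% stayed under 1.5 times and 33.6% under 2 times. The member with the widest range was Csa5G580670, at 1.51 times, named after its values were seen. None of the members was at 0 in any library, whereas 204 genes of the window were.

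The edge of the list was not a gap. The last genes inside were Csa2G034640 and Csa2G008670, at an SD of 0.1426 each, and the first outside were Csa3G115030 at 0.1429 and Csa2G298310 at 0.1430. Csa2G008670 was at 71.5, 74.6 and 84.6 scaled RPKM in salt plus silicon, 73.3 and 65.5 in silicon, 73.9, 71.1 and 74.0 in salt, and 76.8, 78.7 and 95.8 in control libraries. Csa3G115030, just outside, was at 198, 204 and 165 scaled RPKM in salt plus silicon, 204 and 211 in silicon, 218, 202 and 204 in salt, and 188, 224 and 244 in control libraries. In both genes control 3 was the highest library.

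Members were found at all levels of the window. Genes with an SD at or under that of the last member made up 3.09% of the 1683 genes with a mean of 20 to 30 scaled RPKM, 3.49% of the 1776 from 30 to 50, 3.83% of the 1490 from 50 to 100, 1.76% of the 739 from 100 to 200 and 3.18% of the 503 from 200 to 500. The median level of the members was 43.7 scaled RPKM, and that of the other genes of the window was 44.6. The very steadiest were less evenly placed: 13 members had an SD under 0.08, and 12 of those had a mean between 50 and 100 scaled RPKM, a range that held 57 of the 200 members. The limits of the window were not limits of steadiness, since 83 genes with a mean of 10 to 20 and 8 genes above 500 scaled RPKM also had an SD no larger than that of the last member.

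**Figure D2:**
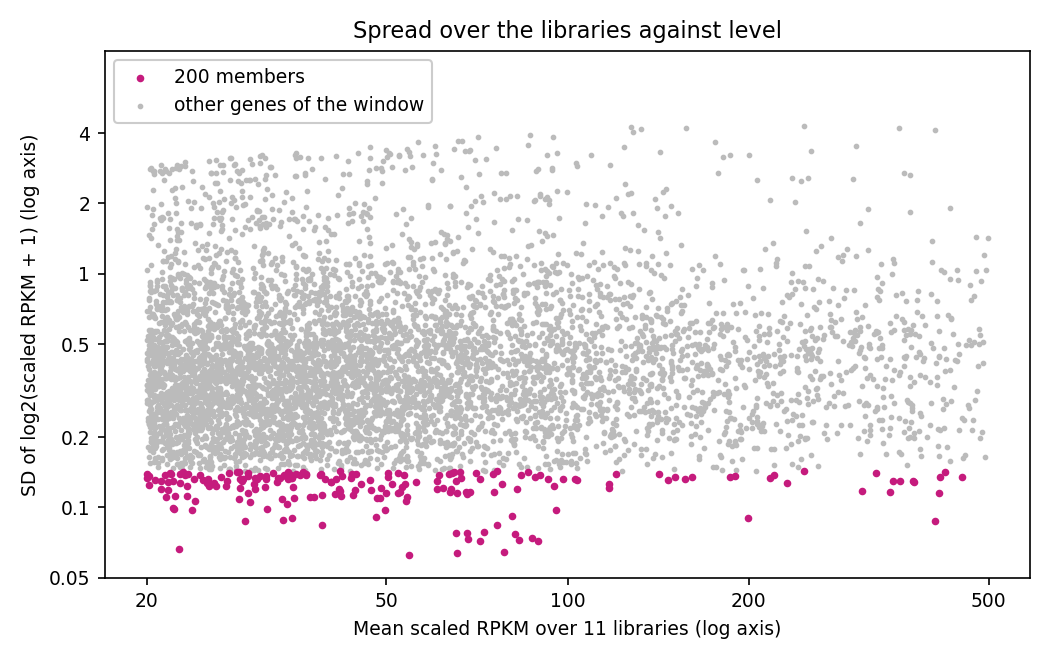
SD of log2(scaled RPKM + 1) over 11 libraries against the mean scaled RPKM, both on log axes, for the 200 members and the 5991 other genes of the window. The members fill a band from 0.063 to 0.14 across the whole window, and 12 of the 13 with an SD under 0.08 lie between 50 and 100 scaled RPKM.

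The member with the highest level, Csa7G390010, was at 410.2, 439 and 455 scaled RPKM in salt plus silicon, 507 and 450.5 in silicon, 458, 433 and 438 in salt, and 498, 373 and 511 in control libraries. Csa2G059750 followed, at 429 ± 45.2 scaled RPKM in salt plus silicon (SD, n = 3), 453 ± 5.87 in silicon (n = 2), 408 ± 50.2 in salt (n = 3) and 414 ± 46.5 in control libraries (n = 3). In both genes a control library was among the lowest values, control 2 at 373 and 361 scaled RPKM. The member with the lowest level, Csa2G361470, only just met the lower limit of 20 scaled RPKM. It was at 18.7, 16.9 and 17.6 scaled RPKM in salt plus silicon, 23.3 and 21.8 in silicon, 22.4, 18.7 and 20.6 in salt, and 20.8, 19.1 and 20.1 in control libraries. No salt plus silicon library was above 18.7 and no silicon library below 21.8, with salt and control between or overlapping, and its 4 group means spanned 0.33 on the log2 scale, the widest range of all members. Csa7G372290, next in level, had groups that overlapped throughout, at 20.4 ± 2.76 in salt plus silicon (SD, n = 3), 20.3 ± 0.649 in silicon (n = 2), 19.0 ± 2.10 in salt (n = 3) and 20.5 ± 2.16 in control libraries (n = 3).

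No member passed the test for a difference between groups, as a choice by low spread favours. The test was limma, fitted to log2(scaled RPKM + 1) of all 17408 genes that reached 1 RPKM in 2 libraries or more, with Benjamini-Hochberg adjustment over those genes and a threshold of 0.05, and all 200 members were among the genes tested. For any difference among the 4 groups 0 members were called, where 14.1% of all genes tested were. For salt plus silicon against control 0 members were called against 5.28% of all genes, for silicon against control 0 against 8.09%, and for salt against control 0 against 9.06%. Between salt plus silicon and salt 0 members were called, beside 0.0172% of all genes. At an unadjusted limma p under 0.05 there were 0 members for any difference, 1 for salt plus silicon against control, 0 for silicon against control and 2 for salt against control, with 0 between salt plus silicon and salt. No other tool was run, and since the rule used the same libraries nothing is read from these counts.

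The members' differences from control were small, as a choice by low spread over all groups favours, and lay on both sides of 0. Between salt plus silicon and control they ran from -0.26 to 0.24 on the log2 scale with a median of -0.023, and 190 members lay within 0.2, which is a factor of about 15%. Between silicon and control they ran from -0.27 to 0.30 with a median of 0.015, and 171 members lay within 0.2. Between salt and control they ran from -0.26 to 0.31 with a median of -0.0032, and 186 members lay within 0.2. The 3 comparisons share the control libraries, and the silicon mean rests on 2 libraries where the others rest on 3. Between salt plus silicon and salt, which differ in silicon, differences ran from -0.22 to 0.21, with 196 members within 0.2. In the other genes of the window the shares within 0.2 were 31.3% for salt plus silicon against control, 26.3% for silicon against control, 28.0% for salt against control, and 66.7% between salt plus silicon and salt.

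**Figure D3:**
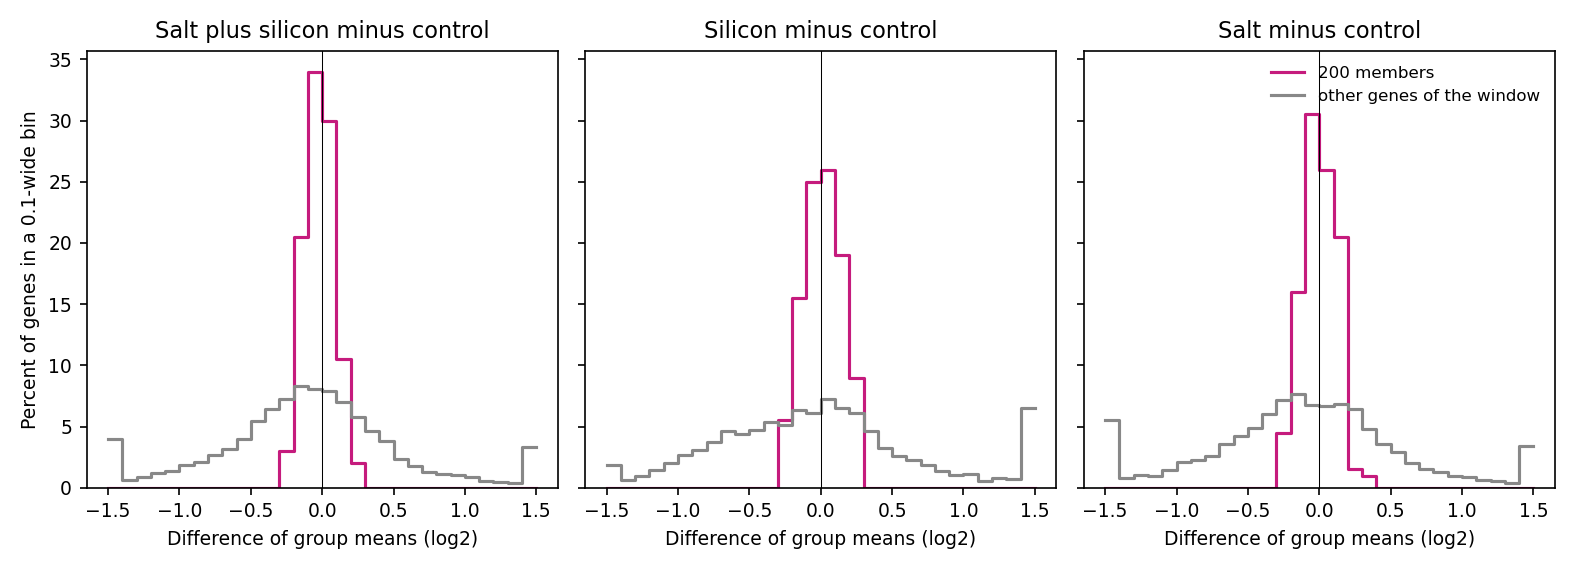
Percent of genes by difference of group means on the log2 scale, in bins of 0.1, for salt plus silicon, silicon and salt, each minus control. The outermost bins hold all values beyond them. The 200 members lie between -0.27 and 0.31, which the choice by low spread favours, while the other genes of the window spread past 1.

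Small as they were, some differences were larger than the replicates' spread. Csa7G282410, with the largest positive difference, was at 247, 234 and 260.4 scaled RPKM in salt plus silicon, 234 and 239 in silicon, 290.4, 285 and 255 in salt, and 224, 207 and 240.1 in control libraries. All salt libraries lay above all control libraries, and limma put the log2 difference at 0.31 with an SE of 0.12 and an adjusted p of 0.140. Csa7G325180 was at 23.8, 25.1 and 22.5 scaled RPKM in salt plus silicon, 24.4 and 21.8 in silicon, 26.2, 23.0 and 25.7 in salt, and 20.9, 19.6 and 19.6 in control libraries. In each treated group its libraries lay above all 3 controls, with a difference of 0.30 ± 0.12 for salt against control (SE, limma adjusted p = 0.138).

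The largest negative differences were in Csa3G123210 and Csa5G608600. Csa3G123210 was at 25.2, 21.3 and 24.5 scaled RPKM in salt plus silicon, 24.0 and 20.4 in silicon, 24.8, 24.8 and 23.8 in salt, and 25.1, 29.9 and 25.7 in control libraries. Both silicon libraries lay under the controls, where control 2 stood above the rest at 29.9, and the log2 difference was -0.27 ± 0.15 (SE, limma adjusted p = 0.291). Csa5G608600 was at 112, 105 and 109 scaled RPKM in salt plus silicon, 121 and 108 in silicon, 118, 110.3 and 112 in salt, and 126, 137 and 129.9 in control libraries. All 8 libraries of treated plants lay under all 3 controls, and the difference was -0.26 ± 0.11 for salt plus silicon against control (SE, limma adjusted p = 0.185). All 4 genes were picked for these differences, so the size of the differences is not independent of that.

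Libraries of 2 groups did not overlap in 28 members for salt plus silicon against control, where 31.0% of all genes tested did not overlap. The count was 46 members for silicon against control, beside 41.6% of all genes, 30 for salt against control, beside 29.2%, and 16 for salt plus silicon against salt, beside 6.97%. As shares of the 200 members these were 14%, 23%, 15% and 8%. With 2 silicon libraries, groups fail to overlap by chance more often than with 3 against 3. The silicon count is therefore not on equal terms with the others, and nothing is read from these counts. In 6 members the 4 group means spanned more than 0.3 on the log2 scale. The 4 group means accounted for 30.4% of a member's variation at the median, against 55.5% in the other genes of the window, where the means use 3 of the 10 degrees of freedom among 11 libraries. A choice by low spread over the same libraries favours this lower share and the lower replicate SDs that follow. The median SD among replicates of the same group was 0.097 in salt plus silicon, 0.089 in silicon, 0.099 in salt and 0.11 in control for the members. In the other genes of the window it was 0.21 in salt plus silicon, 0.20 in silicon, 0.26 in salt and 0.30 in control. Among the groups of 3 libraries, control had the highest median SD in both sets of genes. Silicon has 2 libraries, and an SD of 2 values tends to come out lower, so silicon cannot be ranked with them.

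The extremes of the members were spread over all libraries and groups, but not evenly. Silicon has 2 libraries and each other group has 3, so the counts by group are not on equal terms. The highest value of a member fell in salt plus silicon in 37 members, in silicon in 50, in salt in 54 and in control in 59. The lowest value fell in salt plus silicon in 52 members, in silicon in 33, in salt in 49 and in control in 66. By library, silicon 1 and salt 1 were highest most often, in 34 members each, and control 2 was lowest most often, in 31. Salt plus silicon 2 was the highest library in 5 members. The first principal component held 18.3% of the members' variation and the next 15.8%, against 33.1% and 21.2% in the other genes of the window. The rule used the same libraries, so neither this contrast nor the loadings are independent of the choice, and nothing is read from them. In those other genes the first component had its largest loadings in silicon 1 and 2, at 0.56 and 0.48, with control 1 at 0.29. All libraries given salt were negative there, from -0.15 in salt 1 to -0.31 in salt plus silicon 3. In the members the largest loading was 0.49 in silicon 2, with silicon 1 at 0.086. Replicates of the other groups lay on both sides of 0. Salt 2 was at 0.23 and salt 1 and salt 3 at -0.35 and -0.32. Salt plus silicon 2 was at 0.14 and salt plus silicon 1 and 3 at -0.36 and -0.31. Control 1 and 3 were at 0.20 and 0.40 and control 2 at -0.20.

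The steadiness of the members depended on the scaling of the libraries. In the deposited values the members moved together from library to library, at a median of 0.18 above their own means in salt 2 and 0.29 below them in control 2 on the log2 scale, written as -0.29. After scaling, the median deviation lay between -0.040 in salt plus silicon 2 and 0.047 in silicon 1. With deposited values 193 of the 200 members were higher in salt plus silicon than in control, 188 in silicon and 180 in salt, with median log2 differences of 0.16, 0.21 and 0.14. The medians of all genes tested were 0.14, 0.18 and 0.11 in the same comparisons, close to those of the members. After scaling, 85 members were higher in salt plus silicon than in control, 108 in silicon and 98 in salt. The library factors from all genes ranged from 0.823 in control 2 to 1.14 in salt 2. Factors made from the 200 members alone differed from them by 0.042 on the log2 scale at most, in silicon 1, where the difference was -0.042. The members were chosen for low spread after division by the factors from all genes. This closeness, and the small median deviations after scaling, are therefore in large part built in, and nothing is read from them.

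**Figure D4:**
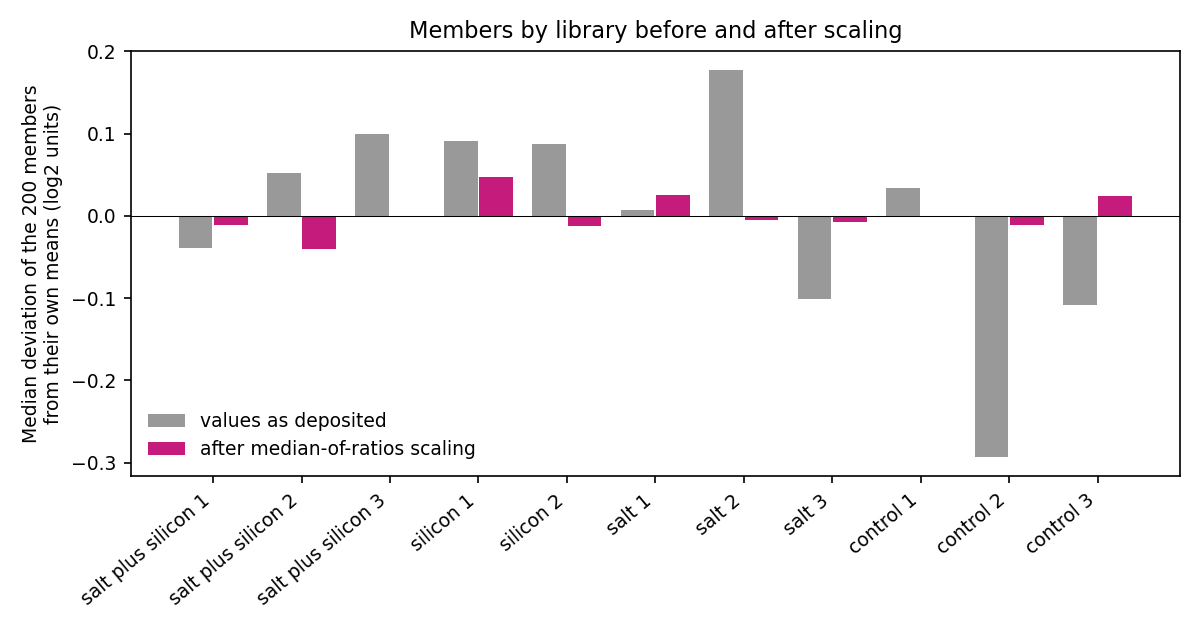
Median deviation of the 200 members from their own means in each library, in log2 units, for values as deposited and after median-of-ratios scaling. As deposited the medians range from -0.29 in control 2 to 0.18 in salt 2. After scaling all lie within 0.047 of 0, which a choice by low spread in scaled values favours.

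The members made up 1.54% ± 0.0782 of the summed deposited RPKM in salt plus silicon (SD, n = 3), 1.497% ± 0.0416 in silicon (n = 2), 1.54% ± 0.140 in salt (n = 3) and 1.27% ± 0.171 in control libraries (n = 3). The lowest share was 1.08%, in control 2, the library with the smallest factor. A gene that is steady after scaling is thus not a steady share of the summed RPKM in this table.

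Steadiness was next read in libraries that had no part in the choice. Each library was left out in turn, 200 genes were chosen by the same rule from the other 10, and their level in the library left out was set against their mean in those 10. The median absolute deviation of the chosen genes was 0.12 on the log2 scale at the median library and ran from 0.099 in salt plus silicon 2 to 0.20 in control 2. In the other genes of the window it was 0.28 at the median library and ran from 0.18 to 0.40. The chosen genes deviated less than the other genes in 11 of 11 libraries. These are descriptions, since genes of 1 library are not replicates. Within each library the other genes deviated between 1.79 and 2.47 times as much as the chosen genes.

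Chosen genes held less closely in some libraries than in others. In salt plus silicon 1 and 2, 170 and 161 of the 200 chosen genes lay within 0.2 of their mean in the other libraries, against 100 in control 2, 103 in silicon 1 and 107 in control 3. The same libraries stood apart in the other genes, of which 30.9% lay within 0.2 in control 2, 27.0% in silicon 1 and 28.6% in control 3. Among the chosen genes, 1 gene deviated by more than 1 on the log2 scale, a 2-fold difference, in salt 3 and 1 in control 3, and none in the other 9 libraries. Between 6.15% and 16.9% of the other genes did so.

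**Figure D5:**
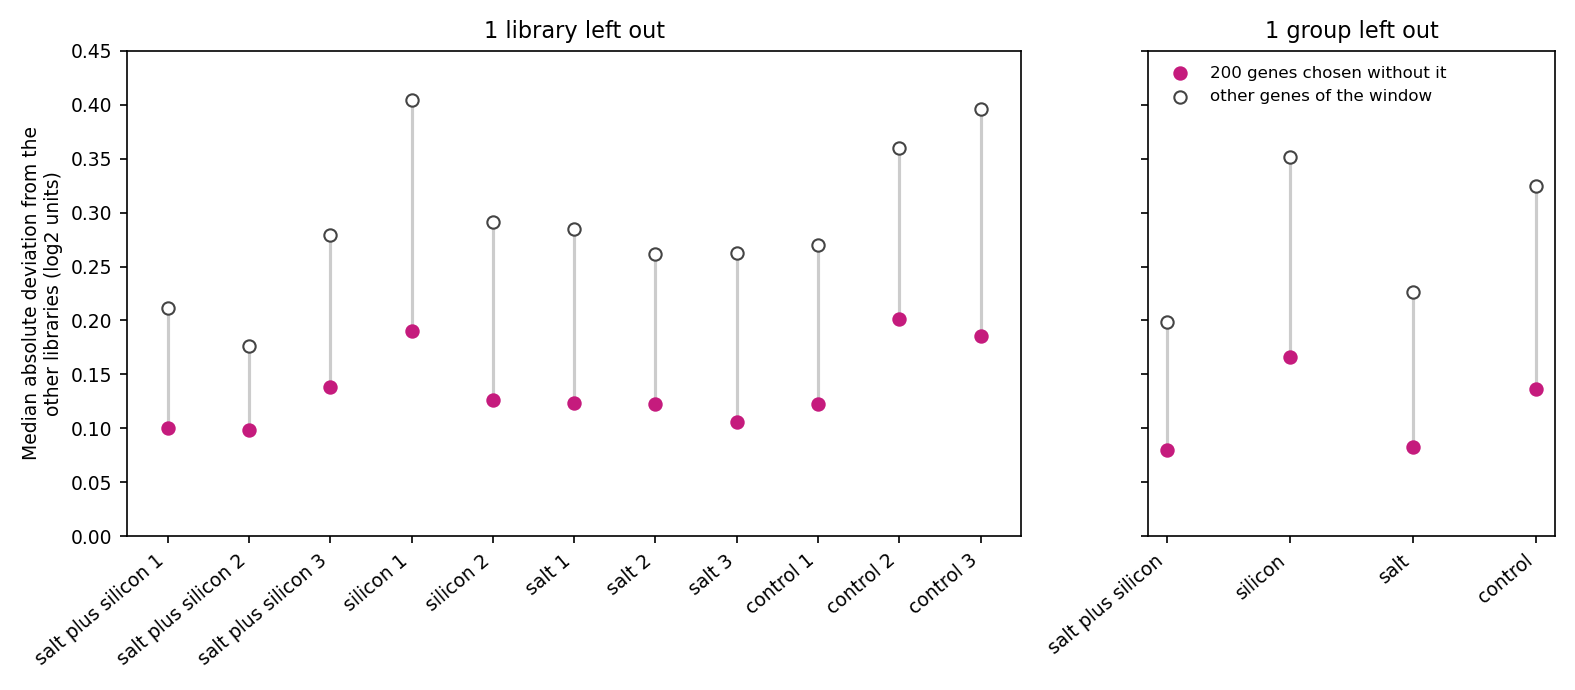
Median absolute deviation from the remaining libraries, in log2 units, in each library (left) or group (right) left out of the choice. Filled points are the 200 genes chosen without it and open points the other genes of the window; filled points lie lower in every library and group, and highest in control 2, silicon 1 and control 3.

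With a whole group left out, genes chosen from the other 3 groups deviated in the left-out group's mean by a median of 0.080 in salt plus silicon, 0.17 in silicon, 0.082 in salt and 0.14 in control. Of these genes, 92% lay within 0.2 in salt plus silicon, 57% in silicon, 89.5% in salt and 66.5% in control. When salt was left out the salt plus silicon libraries stayed in, and the reverse, and the silicon mean rests on 2 libraries, so the 4 values do not compare treatments on equal terms. The difference between them was not tested.

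A few genes that strayed far in the group left out are given as examples, picked after their values were seen. Csa4G106870, chosen without silicon libraries, was at 102 and 80.2 scaled RPKM in silicon, against 48.6, 42.8 and 47.7 in salt plus silicon, 47.7, 43.5 and 52.3 in salt and 56.6, 49.9 and 48.6 in control libraries. Csa5G585380, chosen without salt libraries, was at 113, 75.7 and 103 scaled RPKM in salt, against 71.1, 76.5 and 69.5 in salt plus silicon, 57.2 and 66.0 in silicon and 66.6, 66.9 and 71.8 in control libraries. Silicon 1 and 2 in the one gene and salt 1 and 3 in the other lay above all remaining libraries, while salt 2 did not. Csa6G193610, chosen without salt plus silicon libraries, was at 89.2, 92.6 and 80.8 scaled RPKM in salt plus silicon, against 114 and 106 in silicon, 109.8, 89.6 and 108 in salt and 111, 111 and 112 in control libraries. Its salt plus silicon libraries all lay below those of silicon and control, and overlapped with salt through salt 2. Csa3G731020, chosen without controls, was at 60.1, 45.7 and 30.3 scaled RPKM in control libraries and between 71.5 and 85.7 in the 8 libraries of treated plants, so each treated group lay above control and the controls differed widely among themselves. Csa3G646640, which strayed the farthest of those chosen without controls, was at 44.2, 63.7 and 87.7 scaled RPKM in control libraries and between 31.2 and 40.7 in the 8 others. None of these 5 genes was among the 200 members, which picking them for large deviations favours.

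Members of the list differed in how firmly they belonged to it. Of the 200, 99 were chosen again in all 11 choices without 1 library, 23 in 10 of them and 78 in 9 or fewer. A group of 27 members was chosen under all 21 other settings of the rule, which varied the scaling, the pseudocount, the window, the measure of spread and the libraries. They had a mean level of 21.5 to 199 scaled RPKM with a median of 54.5, and they included the steadiest 6 genes of the list, with Csa6G399780 in sixth place at a mean of 71.5 scaled RPKM and an SD of 0.072. The highest in level of the 27 was Csa7G014580, at a mean of 199 scaled RPKM and an SD of 0.090. Since a lower SD makes a gene harder to displace, its staying in the list is in large part built in.

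Taking the digit in the ID as the chromosome, the members were 29 genes on chromosome 1, 21 on 2, 38 on 3, 18 on 4, 25 on 5, 36 on 6 and 33 on 7, and 0 of the 24 genes of the window with no chromosome in the ID. As a share of the window's genes this was 3.38% on chromosome 1, 2.59% on 2, 2.86% on 3, 2.39% on 4, 3.15% on 5, 3.52% on 6 and 5.54% on 7. The median SD of the window's genes on chromosome 7 was 0.38, inside the range of 0.37 to 0.39 of the other 6 chromosomes. Chromosome 7 was followed further only after its share was seen to be the highest. It held 9.63% of the window's genes and 16.5% of the members. Among the steadiest 100 genes its share was 15%, and among the steadiest 400 it was 14.8%. Among the steadiest 800 it was 11%, and among the steadiest 1600 it was 10.3%. These list lengths were tried after the data were seen, and the excess was not tested. The share was between 10% and 18% under the other settings of the rule, lowest when the silicon group was left out.

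In 3 cases a pair of genes next to each other in ID order were both members: Csa6G077440 with Csa6G077450, Csa6G494960 with Csa6G494970, and Csa7G280860 with Csa7G281360. The window held 2118 such pairs of neighbours. Over the 11 libraries, which share the same scaling, the remaining small movements of the 3 pairs correlated at -0.085, -0.21 and 0.29. Strand was not recorded, so reads of genes that overlap on opposite strands could not have been told apart.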

How the data were processed

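The authors deposited 1 table per library with 1 RPKM value per gene, as the tables are named; TopHat2 was among the tools, per the submitters' processing notes, and neither its version nor the counting program, annotation or build is named in those sources. Libraries were made from poly(A) RNA without strand, per the labels' protocols. Any 2 libraries had at most 1 identical value above 0. Ratios of values under 0.2 RPKM to control 1 (kept from 0.6 to 1.6) gave relative depth at their mode; 11.5% to 29.2% of ratios lay within 0.5% of it, which does not give back whole reads, and no count model was used.

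The rule was applied in Python 3.11.15 (numpy 2.4.6, pandas 2.3.3). limma 3.58.1 in R 4.3.3 fitted 4 group means with a mean-variance trend and 7 residual degrees of freedom, on scaled values because the rule uses them. Tests between 2 groups were two-sided, and any difference among the 4 groups was tested by an F-test. Both steps were run on simulated data. For the rule, the planted steady genes were set well below all others in SD, a gap that these data lack. That run therefore says nothing about the edge of the list. Named genes were the 5 lowest SDs, the 2 highest and 2 lowest means, the 2 largest positive and negative differences from control, and 2 genes on either side of the edge. The members, lists and tests were chosen with earlier results of these data known. Replicates are pools of leaves, and nothing says whether they came from separate containers. Gene lists by product, promoters and proteins were not analysed here, as the IDs could not be paired with names.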

Additional observations from a re-analysis of the deposited data

How the results depend on the processing

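The choice of members depended on its settings. Of the 200 members, 73 were chosen again from values as deposited, 110 after quantile normalization, 109 with a window from a mean of 1 and no upper limit, 118 without the silicon group, 132 without the salt group and 98 without the control group; the cause was not tested, except that the wider window adds genes. The count was 142 without the salt plus silicon group, 195 with a pseudocount of 0.1, 185 by the coefficient of variation and 137 by the mean SD of log2 ratios to all other genes of the window. Those ratios were taken from deposited values with the pseudocount of 1, while the window was still set by scaled means. With 1 library left out it lay between 136 (without control 2) and 178 (without salt plus silicon 1). The members' median SD of 0.13 was 0.18 as deposited, 0.14 after quantile normalization, 0.13 with the other pseudocount and 0.12 to 0.13 with 1 library left out. The SDs of the 17 named genes moved by over 1.5 times in 15 of 238 values. As deposited 9 of 17 did so: the steadiest 5 had SDs of 0.13 (Csa7G024070), 0.16 (Csa1G305740), 0.14 (Csa5G615250), 0.14 (Csa7G394600) and 0.14 (Csa7G004130), and those of Csa7G390010, Csa2G059750, Csa7G282410 and Csa7G325180 were between 0.22 and 0.25. After quantile normalization 5 of 17 did so, at 0.12 (Csa7G024070), 0.13 (Csa1G305740), 0.13 (Csa5G615250), 0.11 (Csa7G004130) and 0.22 (Csa7G282410). Without silicon 2 the SD of Csa2G298310, just outside the list, was 0.090. In all 99 combinations of a comparison with another setting, limma called 0 of the 200 members, which the choice by low spread favours. The settings were scalings, pseudocount, filters, robust moderation, groups compared alone, a replicate block and each library left out. The replicate block called 1684 of 17408 genes for any difference among the 4 groups, where 2455 were called without it, and 0 members. Same-numbered libraries correlated at -0.20 to 0.16 in their deviations from group means, and numbers were not taken as pairs. In 9 of 18 comparisons a library correlated best with its own number among the 3 libraries of another group. An even draw gives fewer on average, but each pair of groups was counted in both directions, so the 18 comparisons are not independent. Whether same-numbered libraries belong together was not tested, and nothing is read from this count. The share of all genes called, set beside the members' counts, was itself unstable. With 1 library left out, the calls for any difference among the 4 groups lay between 916 (without silicon 1) and 3011 (without salt 2), where 2455 were called. They lay between 172 (without salt plus silicon 3) and 1183 (without salt 2) for salt plus silicon against control, where 920 were called, between 57 (without silicon 1) and 2163 (without control 1) for silicon against control, where 1409 were called, and between 482 (without salt 3) and 2180 (without salt 2) for salt against control, where 1577 were called. With only the groups compared in the fit the calls were 631, 108 and 421 in these 3 comparisons, and 11 between salt plus silicon and salt, where 3 were called with all groups and 3 to 10 with 1 library left out (10 without salt plus silicon 2). The replicate block called 863 genes for silicon against control. Depth limits how small a spread can be seen, and it is known here only relative to control 1.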
